A study of Danio rerio with 24 samples.

Results

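The genes described here encode the core proteins of the lecticans (bcan, ncanb, vcana, vcanb, acana and acanb) and of the membrane-bound chondroitin sulfate proteoglycans (CSPGs) cspg4, cspg5a and cspg5b, in rb1 brain tumors of zebrafish. They were taken from the count table by name. Of 10 names searched, 9 were present among 32266 genes. The remaining name, ncana, was not used in the table, but its gene ID ENSDARG00000100128 was there under the clone name CU861477.1, so its values are given beside the others as a relative that stands outside the count of 9. cspg4ba and cspg4bb, the other copies of cspg4, were found in the same way and are treated alike.

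The tumors came from 10 adult WIK fish that carried TALEN-made lesions of rb1, the zebrafish retinoblastoma gene, in part of their somatic cells, so each fish was a mosaic of targeted and untargeted cells. Controls were 2 pools of 3 brains each from wild-type siblings. The fish were 6.5 to 10 months old per the labels. Per the methods, RNA came from the left or right side only, and took in diencephalon, midbrain and cerebellum, so a tumor sample can hold normal brain as well, and the labels give each RNA an a and a b library.

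The 24 libraries held 8790733 to 12843739 counted reads, and the a and b libraries of each RNA were summed to totals of 18498108 to 24953666. Control libraries that shared a letter agreed within counting noise (chi-square per degree of freedom 1.00 and 1.01, p = 0.337 and 0.250), whereas control libraries with different letters did not (3.25 to 3.42). The 2 control pools, each summed over both letters, are therefore close in most values below. In the paper's supplement, the letters mark technical replicates and the numbers mark the control pools, but the agreement above runs by letter. Whether the letters rather than the numbers mark the separate control RNAs is not known. If they do, the gap between the pools understates the spread of the controls. The a and b libraries of the same tumor gave 1.04 to 1.60 (median 1.11). Each test was repeated with the control libraries summed by letter instead of by pool, which also gives 2 controls. All 9 genes and the 3 relatives kept their calls in that repeat. The 20 markers of mature neurons were all lower in the tumors, with summed levels of 1408 to 4407 CPM (reads of a gene scaled to the size of its library) against 15782 and 15741 in the pools. Of 10 markers of oligodendrocyte precursors, 6 were higher and 3 lower. All 8 markers of cycling cells and 7 of 12 of microglia and macrophages were higher. Of all tested genes, 22.8% were higher and 24.9% lower by the same calls, which are defined below. In bulk tissue, fewer cells of a type and less RNA per cell cannot be told apart.

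Lecticans are large secreted proteins that carry chondroitin sulfate chains. One end binds hyaluronan, a long sugar polymer, with the help of small link proteins (the hapln genes), and the other end binds tenascins, which ties the components into the brain's extracellular matrix. In the mature mammalian brain this matrix is densest in perineuronal nets, which surround certain neurons and in which aggrecan is abundant, while versican and neurocan are best known from developing tissue. CSPG4, also called NG2, and CSPG5, also called neuroglycan C, cross the cell membrane. NG2 is a standard mammalian marker of oligodendrocyte precursors and pericytes, and neuroglycan C is made mainly in the nervous system.

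The 9 genes did not move together. Calls were made with edgeR's quasi-likelihood test on the summed counts, and required both a Benjamini-Hochberg adjusted p no greater than 0.01 and a 1.5-fold or greater change. vcanb and bcan were higher in the tumors (2 of 9 genes, against 22.8% of all 20957 genes tested), and cspg5a, cspg5b and cspg4 were lower (3 of 9, against 24.9%). ncanb, vcana, acana and acanb passed neither way. These shares are near those of all genes, so the counts say nothing about the genes as a group, and the results lie in the individual genes. All 10 tumors lay above both pools for 2 of the 9 genes, where 31.5% of all tested genes did so, and below both pools for 5 of the 9, where 32.8% did.

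**Figure D1:**
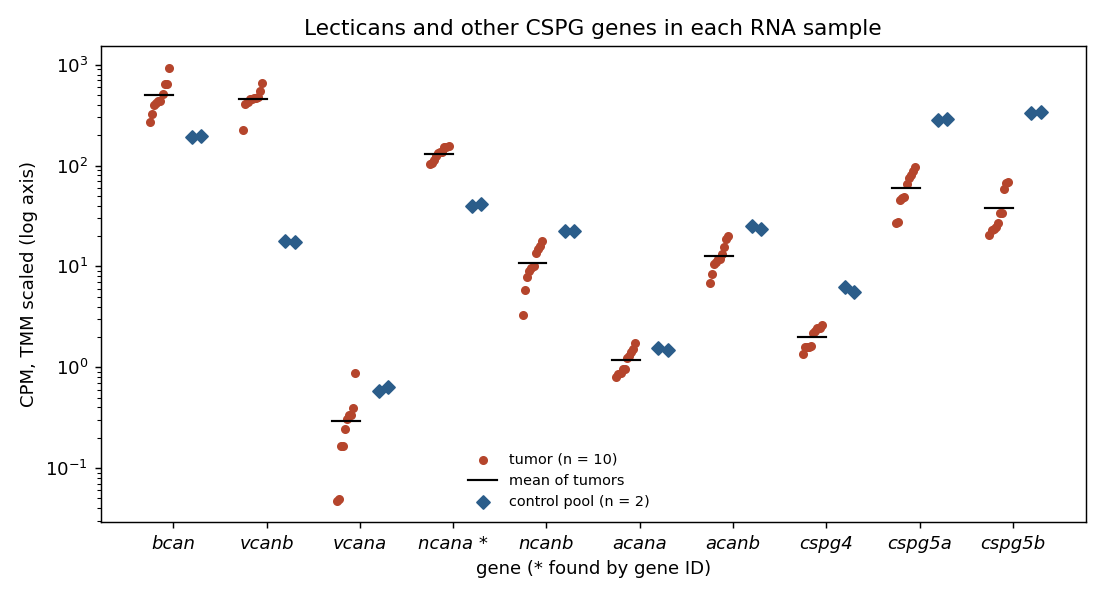
Level of each gene in every RNA sample, in CPM scaled by TMM on a log axis. Red points are the 10 tumors, black lines their means and blue diamonds the 2 control pools. The tumors lie above both pools for bcan, vcanb and ncana, and below both for ncanb, acanb, cspg4, cspg5a and cspg5b.

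vcanb (ENSDARG00000009401), one of 2 zebrafish copies of versican, a large lectican, showed the greatest change of the 9. Its level was 17.7 and 17.3 CPM in the pools, and in the tumors 226.5 CPM at the lowest (tumor 9), 464 at the median and 655 at the highest (tumor 2). The groups were far apart, since even tumor 9 lay far above both pools, and 8 of the other 9 tumors lay close together. The tumor mean was 461 ± 108 CPM (SD, n = 10), 26.3-fold that of the pools, with an edgeR log2 fold change of 4.72 ± 0.36 (SE) and an adjusted p of 4.7e-07. vcanb was called in all 27 alternative fits, at log2 fold changes of 4.226 to 5.003.

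vcana (ENSDARG00000103515), the other versican copy, was close to the limit of detection. It had 12 and 14 counts in the pools and 1 to 20 counts in the tumors, of which 2 had at most 3 counts. It entered the test only through its counts in the control pools. The tumors overlapped the pools, as 9 lay below both and tumor 4, at 0.875 CPM, lay above both. The log2 fold change was -1.04 ± 0.70 (edgeR adjusted p = 0.212). A change in vcana could not be shown at this depth.

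The log2 ratio of vcana to vcanb counts within each sample, which does not depend on scaling, was -4.88 and -4.72 in the pools and -13.10 to -8.84 in the tumors. With so few vcana counts this ratio mostly restates the vcanb change and is no separate result on the pair.

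bcan (ENSDARG00000099412) encodes brevican, a lectican largely restricted to the nervous system. It was at 191 and 195 CPM in the pools. In the tumors it ran from 270 CPM in tumor 5 through a median of 438 to 938 in tumor 6. All 10 tumors were above both pools, but tumor 5 came within 1.5-fold of them, and tumor 6 stood well above the rest. The mean was 502 ± 195 CPM (SD, n = 10), 2.61-fold the control mean, with a log2 fold change of 1.38 ± 0.39 (SE) and an edgeR adjusted p of 0.00803. That p lies just inside the threshold. Without control pool 1 it was 0.0670 and without pool 2 it was 0.0623. Without tumor 1, 3, 7 or 9 it was 0.0103, 0.0118, 0.0116 and 0.0105, and with tumor 6 left out it was 0.00369. The fold change ranged only from 1.19 to 1.47 on the log2 scale over all alternatives.

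The neurocan copies went apart. ncanb (ENSDARG00000005783) had 22.2 and 22.3 CPM in the pools and 3.32 (tumor 2), 9.87 and 17.98 CPM (tumor 7) as the lowest, median and highest tumor. All 10 tumors were below both pools, but they spread 5.41-fold among themselves, and the log2 fold change of -1.04 ± 0.42 missed the threshold (edgeR adjusted p = 0.0461). Summed by letter, the control libraries gave 18.98 and 25.5 CPM for ncanb, a wider gap than between the pools, with tumor 7 close below the lower value. ncana, found by its gene ID, had 39.5 and 42.1 CPM in the pools and 104 to 157 CPM in the tumors, median 134. It was the most even of the 12 genes across the tumors, with a coefficient of variation of 14.7%. Its log2 fold change was 1.69 ± 0.18 (edgeR adjusted p = 7.1e-06). The log2 ratio of ncana to ncanb counts was 0.83 and 0.91 in the pools and 2.81 to 5.34 in the tumors, a mean difference of 2.87. An exact two-sided permutation test over the 66 possible choices of 2 controls gave p = 0.0152, the smallest it can give, and 0.0303 after Benjamini-Hochberg adjustment over the 4 pairs of copies compared. The ncana gene model in the table has 2301 bp of exons against 3893 bp for ncanb, and whether it is complete is not known, which leaves its FPKM and any share or rank built on it uncertain.

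Aggrecan, the lectican of perineuronal nets and cartilage, was low in both groups. acanb (ENSDARG00000045799) had 25.2 and 23.5 CPM in the pools. Its lowest, median and highest tumors were at 6.79 (tumor 1), 11.8 and 19.8 CPM (tumor 3). Every tumor was below both pools, and the log2 fold change of -0.93 ± 0.30 missed the threshold (edgeR adjusted p = 0.0166). It passed with tumor 3 left out (adjusted p = 0.00683) or tumor 4 left out (0.00923), and also under DESeq2 (0.00980), limma voom (0.00772) and with the b libraries alone (0.00457). Of 27 alternatives, however, 20 did not call it. Among these were edgeR on the a libraries alone (adjusted p = 0.0623) and edgeR's glmTreat (0.104). acana (ENSDARG00000035891) had 1.546 and 1.496 CPM in the pools and 0.801 to 1.76 in the tumors. The groups overlapped, with 8 tumors below both pools and 1 above, and the log2 fold change was -0.38 ± 0.32 (edgeR adjusted p = 0.319). The ratio of the aggrecan copies did not differ by the exact permutation test (mean log2 difference 0.58, p = 0.333).

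The 9 markers of fast-spiking, net-bearing neurons, which are parvalbumin and potassium channel genes, were all lower in the tumors, with summed levels of 64.1 to 242 CPM against 953 and 942. Of 9 tested cartilage markers, 2 were higher and 2 lower, against 22.8% and 24.9% of all tested genes. The cartilage genes matn1 and ucmab were too low to test. Whether the levels of these cells bear on acana and acanb was not tested.

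Levels of different genes were compared as FPKM, which divides by the exonic length of the gene. Summed over the 7 lectican genes, ncana included, the level was 69.9 and 71.4 FPKM in the pools and 186 to 322 FPKM in the tumors, so every tumor was above both pools. bcan supplied 51.7% of that sum in each pool, and 26.2% to 51.3% in the tumors. vcanb supplied 4.76% and 4.55% in the pools and 21.3% to 44.3% in the tumors. ncana held a like share in both groups, 25.7% and 26.9% against 17.5% to 35.1%. The shares of ncanb and acanb were 8.56% and 8.87% in pool 1 and at most 2.17% and 2.197% in any tumor. A share also falls when the sum rises, and neither gene passed its own test. These shares are a description, and no test was run on them.

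**Figure D2:**
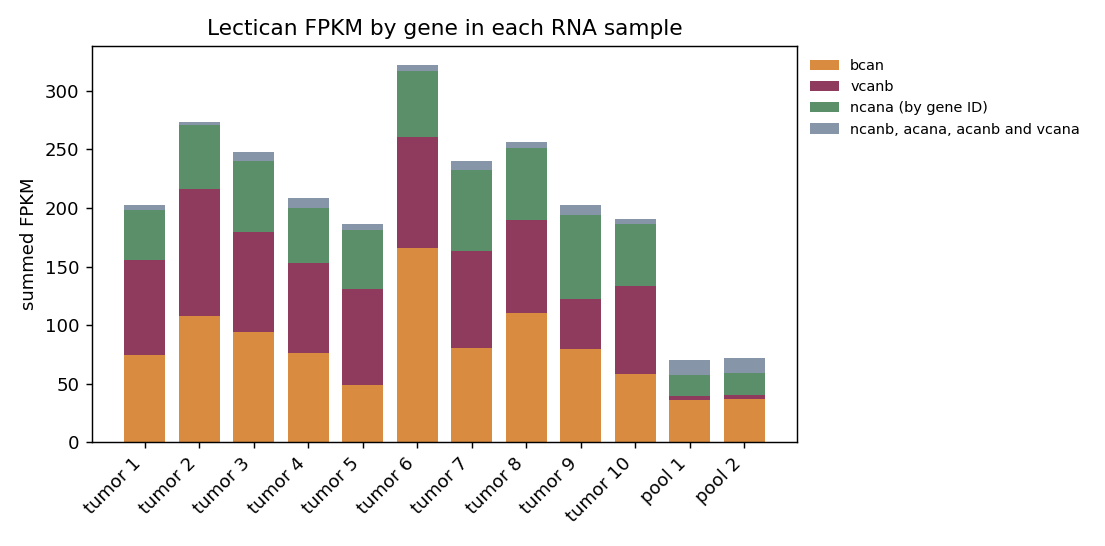
Lectican FPKM in each RNA sample, stacked by gene, with ncanb, acana, acanb and vcana summed in grey. The bars reach 186 to 322 FPKM in the 10 tumors and 69.9 and 71.4 FPKM in the 2 control pools, and the vcanb segment is at 43.1 to 109 FPKM in the tumors against 3.33 and 3.25 FPKM in the pools.

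In the tumors the order by mean FPKM was bcan (89.4), vcanb (81.1), ncana (56.7), cspg5a (23.8), cspg5b (11.5), acanb (2.998) and ncanb (2.78), with the other genes below 1 FPKM. Neighbours in that order were not always separate. bcan exceeded vcanb in only 4 of 10 tumors, and acanb exceeded ncanb in 7. vcanb exceeded ncana in 9 tumors, and cspg5a exceeded cspg5b in all 10. In the pools the order began with cspg5a (118) and cspg5b (105), ahead of bcan (36.5) and ncana (18.6), and vcanb came seventh at 3.29 FPKM.

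cspg5a and cspg5b, the copies of neuroglycan C, showed the strongest falls. cspg5b (ENSDARG00000099793) had 330 and 337 CPM in the pools, and its tumors had a lowest level of 20.4 (tumor 1), a median of 30.4 and a highest of 68.99 CPM (tumor 4). The groups were well apart, and even the highest tumor lay far below either pool. The tumor mean was 38.1 ± 19.2 CPM (SD, n = 10), 8.76-fold lower than that of the pools, with a log2 fold change of -3.13 ± 0.38 (edgeR adjusted p = 1.8e-05).

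cspg5a (ENSDARG00000069981) had 283 and 288 CPM in the pools. In the tumors it had 26.9 CPM at the lowest (tumor 1), 56.9 at the median and 97.6 at the highest (tumor 4). Again no tumor came near the pools. The mean was 60.4 ± 24.9 CPM (SD, n = 10), 4.73-fold lower than the control mean, with a log2 fold change of -2.24 ± 0.36 (edgeR adjusted p = 0.00015). Summed by letter, the control libraries gave 312 and 260 CPM, a wider gap than between the pools, and cspg5a was called under this grouping too. Both copies were called in all 27 alternative fits.

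cspg5b fell further than cspg5a in the mean. The log2 ratio of cspg5a to cspg5b counts was -0.22 and -0.23 in the pools and 0.15 to 1.80 in the tumors, so every tumor was above both pools. The mean difference was 0.91, with an exact permutation p of 0.0455 that became 0.0606 after adjustment over the 4 pairs and did not pass 0.05. With tumor 6 left out, which had the highest ratio, the difference was 0.79 and its adjusted p was 0.0242.

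cspg4 (ENSDARG00000078227), the NG2 core protein, was low. It had 6.23 and 5.53 CPM in the pools (129 and 122 counts), and its lowest, median and highest tumors had 1.34, 1.90 and 2.61 CPM (27 to 60 counts). All tumors were below both pools, and the spread among them was among the narrowest of these genes, 1.95-fold. The mean was 2.98-fold lower, with a log2 fold change of -1.57 ± 0.25 (edgeR adjusted p = 0.00015). With the replicate number as a block the edgeR adjusted p was 0.0275. That fit compares only tumors 1 and 2 with the pools, since the other tumors share no number with a control. cspg4ba (ENSDARG00000076735) also fell, from 4.83 and 4.44 CPM to a tumor range of 1.40 to 2.76 (log2 fold change -1.19 ± 0.25, edgeR adjusted p = 0.00126), but without pool 1 or pool 2 its adjusted p was 0.0241 and 0.0139, and 0.0788 with the block. cspg4bb (ENSDARG00000075600) was at 0.338 and 0.363 CPM in the pools and 0.497 to 3.83 CPM in the tumors, and did not pass (edgeR adjusted p = 0.0598).

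The markers of the cells known for NG2 in mammals did not all follow cspg4. Among oligodendrocyte precursor markers, olig2, sox10, sox8b, nkx2.2a, gpr17 and erbb3a were higher in the tumors, at log2 fold changes from 3.56 for olig2 to 7.79 for gpr17. Those that were lower were olig1, a transcription factor of the lineage (log2 fold change -2.76), pdgfra, the receptor for platelet-derived growth factor A (-2.12), and lhfpl3 (-1.92). The summed level of the list was 3006 to 4625 CPM in the tumors against 368 and 364. Of 11 pericyte and mural markers, 3 were lower and none higher, against 24.9% and 22.8% of all tested genes. Their summed levels were 116 to 165 CPM in the tumors against 257 and 250 in the pools, but notch3 and abcc9 held most of that sum. notch3 had 120 and 115 CPM in the pools and 38.6 to 67.0 in the tumors, and abcc9 66.9 and 67.8 against 17.4 to 38.8. The median log2 fold change of the 11 markers was only -0.29, and 8 were not called. Among the 10 tumors, no relation of cspg4 to the mean level of the precursor markers was shown (Pearson's r = 0.02, Spearman's rho = -0.08, permutation p = 0.965 and 0.836). The part of either cell type in the cspg4 difference between tumors and pools was not tested.

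Among the 10 tumors, 18 relations were computed between the 9 genes and the mean log2 CPM of the neuron or the oligodendrocyte precursor markers, and adjusted together. cspg5a followed the neuron markers most closely (Pearson's r = 0.94, Spearman's rho = 0.93, n = 10, permutation p = 6.0e-05 and 0.00045, adjusted 0.00108 and 0.00810). Without tumors 1 and 2, which were farthest from the median of the neuron score, its r was 0.90. acanb had r = 0.88 and rho = 0.77 (permutation p = 0.00099 and 0.0129, adjusted 0.00891 and 0.0779), and r = 0.68 without those 2 tumors. cspg5b had r = 0.81 and rho = 0.77 (permutation p = 0.00506 and 0.0130, adjusted 0.0304 and 0.0779), and r = 0.81 without them.

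For cspg5b the points fell into separate sets. Tumors 3, 4 and 9 had 58.03 to 68.99 CPM, and the other 7 had at most 33.8, so its r over all 10 tumors is a description of both sets together.

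**Figure D3:**
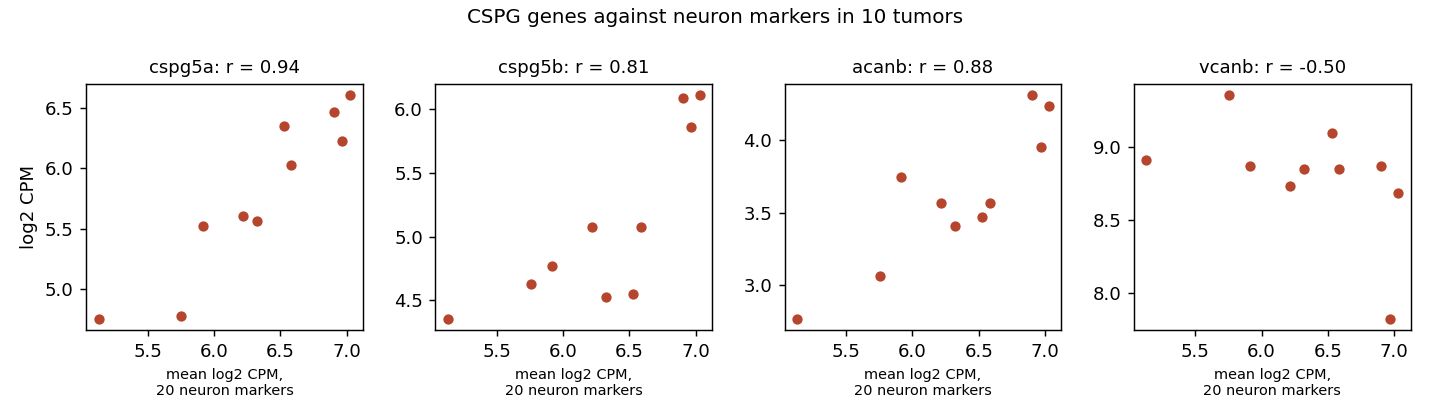
log2 CPM of cspg5a, cspg5b, acanb and vcanb (vertical axes) against the mean log2 CPM of 20 neuron markers (horizontal axes) in the 10 tumors, 1 point per tumor. cspg5a rises with the markers over the whole range, cspg5b splits into 3 high tumors and 7 lower ones, and vcanb has r = -0.50.

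vcanb had r = -0.50 and rho = -0.64 with the neuron markers (permutation p = 0.140 and 0.0558, adjusted 0.263 and 0.167), and bcan r = -0.09 and rho = -0.21 (permutation p = 0.798 and 0.560, adjusted 0.997 and 0.776), so neither relation was shown. With the oligodendrocyte precursor markers no relation passed the adjustment. The highest r there was 0.67, for ncanb (rho = 0.73, permutation p = 0.0334 and 0.0206, adjusted 0.1202 and 0.0926, r = 0.62 without tumors 3 and 10). Leaving out 2 tumors also removed every adjusted call for the neuron markers, with 8 tumors in each test.

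The genes whose pattern over the 10 tumors was most like each member were sought among 11009 or 11010 genes, by Pearson's r of log2 CPM, as a description with no test. For cspg5a they were calm1a (calmodulin, r = 0.99), eno2 (neuron-specific enolase, 0.98) and atp6v0a1b (a vesicular proton pump subunit, 0.97). For cspg5b they were spegb (0.96), myo16 (0.96) and itpr1b (an inositol trisphosphate receptor, 0.96). For vcanb they were opcml (an opioid-binding cell adhesion molecule, 0.95), rpa2 (a single-strand DNA binding protein of replication, 0.95) and neto2b (0.94). For bcan they were ift20 (0.93), gid8a (0.91) and adgrv1 (0.90). For acanb they were necap1 (0.94), etv5a (0.94) and zfhx4 (0.94), and for ncanb KLHL29 (0.95), prkcbb (0.92) and spred3 (0.91). acana was closest to CABZ01095512.1 (0.93), cspg4 to mt-nd1 (0.86) and vcana to tmem135 (0.94). vcana reached that r with only 1 to 20 counts per tumor. With 10 tumors and so many genes searched, an r of this size is thus no sign of a shared pattern by itself.

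Link proteins hold lecticans to hyaluronan, and 4 of these genes lie directly beside a lectican gene in the RefSeq annotation of zebrafish assembly GRCz12tu. bcan adjoins hapln2, vcana adjoins hapln1a, vcanb adjoins hapln1b and acanb adjoins hapln3, while ncanb and hapln4 have 1 protein-coding gene between them. The pairs of vcana, vcanb and bcan differed in their changes. acanb with hapln3 and ncanb with hapln4 had log2 fold changes below 0 for both genes, although acanb and ncanb did not pass the test. All 10 tumors were below both pools for these 4 genes, as for 32.8% of all tested genes.

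hapln1a had 3.09 and 2.67 CPM in the pools and 46.5, 194 and 562 CPM as the lowest, median and highest tumor, and its log2 fold change was 6.45 ± 1.13 (edgeR adjusted p = 0.00028), although vcana beside it was near the limit of detection. hapln1b, beside the strongly raised vcanb, had 3.14 and 3.54 CPM in the pools and 0.506 to 5.12 in the tumors, and did not pass (edgeR adjusted p = 0.351). Thus the raised versican and the raised link protein belonged to different gene pairs.

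hapln2, a link protein known from nodes of Ranvier in mammals, was 21.6 and 23.1 CPM in the pools and 1.57 to 11.7 in the tumors (log2 fold change -2.08 ± 0.51, edgeR adjusted p = 0.00334), opposite in sign to bcan. hapln4, a link protein of perineuronal nets in mammals, had 43.4 and 42.9 CPM in the pools and 1.57 to 7.695 in the tumors (-3.29 ± 0.41, edgeR adjusted p = 2.3e-05). hapln3 was lower as well (-1.12 ± 0.31, edgeR adjusted p = 0.00707). Of the 5 link proteins, hapln1a alone was higher, 3 were lower and hapln1b was not called, against 22.8% higher and 24.9% lower of all tested genes.

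**Figure D4:**
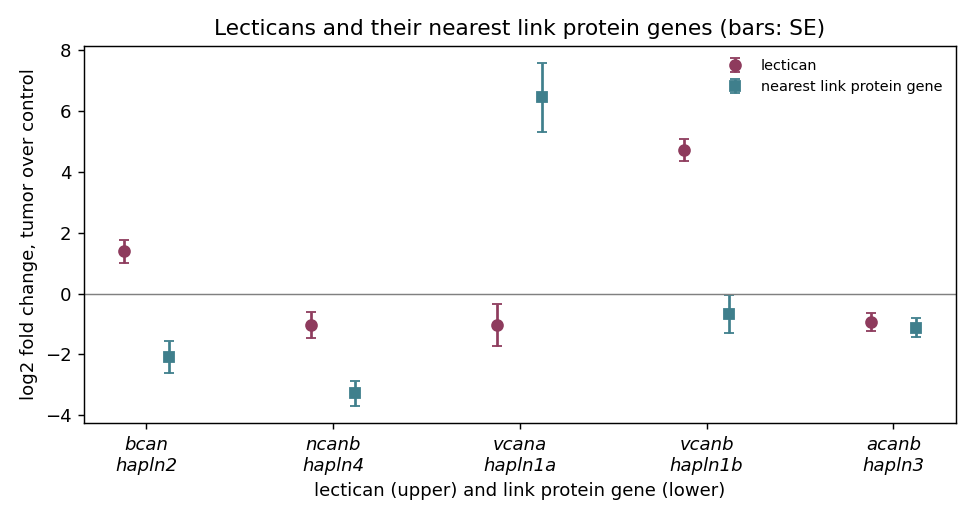
log2 fold changes, tumor over control, of 5 lecticans (circles) and of the link protein gene nearest to each (squares), with bars for the SE. vcanb (4.72) and hapln1a (6.45) are raised while the partner of each is not, bcan (1.38) and hapln2 (-2.08) have opposite signs, and both genes of the acanb and ncanb pairs lie below 0.

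Of 18 tested genes of hyaluronan and link proteins, 5 were higher and 4 lower, near the 22.8% and 24.9% of all tested genes, and the median log2 fold change was 0.45 against 0.09 for all tested genes. has3, a hyaluronan synthase, rose from 5.85 and 4.305 CPM in the pools to 22.5 to 74.9 in the tumors (log2 fold change 3.14 ± 0.51, edgeR adjusted p = 0.00016), whereas the synthases has1 and has2 were too low to test. hmmr, a hyaluronan receptor that is also a mitotic spindle protein, had 3.38 and 3.49 CPM in the pools and 97.6 to 214 in the tumors (5.45 ± 0.37, edgeR adjusted p = 1.9e-07). It is one of the genes that cycling cells express, and all 8 cycling markers were higher. The part of cycling cells in the hmmr values was not tested. hyal4, whose human counterpart cuts chondroitin sulfate, was lower (-2.05 ± 0.52, edgeR adjusted p = 0.00411). Its relative hyal2b was called higher (1.31 ± 0.23, edgeR adjusted p = 0.00026), as was tmem2 of the same list (0.97 ± 0.23, 0.00256). Both lay outside the 3 greatest rises and were chosen after their values were seen.

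Of the matrix proteins that bind lecticans, tenascin-R and tenascin-C went opposite ways. tnr, which mammalian oligodendrocyte lineage cells and some neurons make, had 55.3 and 55.5 CPM in the pools and 873, 1206 and 1547 CPM as the lowest, median and highest tumor (log2 fold change 4.41 ± 0.26, edgeR adjusted p = 6.3e-08). tnc had 140 and 141 CPM in the pools and 5.37 to 43.9 in the tumors (-2.70 ± 0.47, edgeR adjusted p = 0.00028). Neither overlapped between the groups. Of all tested genes, 31.5% lay above both pools in all 10 tumors and 32.8% below. FBLN1, which encodes fibulin-1, was also lower (-1.53 ± 0.38, edgeR adjusted p = 0.00352). In this list of 5 tested genes 1 was higher and 3 lower, against 22.8% and 24.9% of all tested genes. The median log2 fold change was -1.50.

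Of 31 tested genes that build chondroitin sulfate chains, 6 were higher and 4 lower, against 22.8% and 24.9% of all tested genes, and the median log2 fold change was 0.42. The named rises were chst3a, ust and papss2a. chst3a, a chondroitin 6-O-sulfotransferase, had 1.55 and 1.36 CPM in the pools and 89.6, 105 and 150 CPM as the lowest, median and highest tumor. Its log2 fold change was 6.24 ± 0.27 (edgeR adjusted p = 5.4e-09), and the tumors formed a tight set far above both pools. ust, a uronyl 2-O-sulfotransferase, rose from 4.88 and 3.81 CPM to 28.0 to 81.5 (3.82 ± 0.41, edgeR adjusted p = 7.0e-06). papss2a, which makes the sulfate donor, rose from 3.14 and 3.81 CPM to 14.1 to 49.9 (3.13 ± 0.48, edgeR adjusted p = 0.00011).

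Of the 9 sulfotransferase genes tested, chst3a and ust were called higher, none was called lower and the other 7 were not called. Of all tested genes, 22.8% were higher and 24.9% lower, so the count of rises is near that share. Among those 7, chst11, a chondroitin 4-O-sulfotransferase, had a log2 fold change of -0.03 (edgeR adjusted p = 0.920), and chst7 of 0.36 (adjusted p = 0.174). Some uncalled genes lay outside both pools in every tumor. chst12a lay above both pools in all 10 tumors and missed only the fold threshold (log2 fold change 0.54, edgeR adjusted p = 0.00408). chst14 was also above both pools in all 10 tumors (1.18, edgeR adjusted p = 0.0182). chst15 was below both in all 10 (-0.58, edgeR adjusted p = 0.101). Of all tested genes, 31.5% lay above both pools in all 10 tumors and 32.8% below, so this alone shows no change. The genes named from those 7 were chosen after their values were seen. The genes called lower act on the chain itself or on its linker. Other chain-building genes that were not called went both ways. The log2 fold change was 0.54 for chsy1 and 0.50 for b4galt7, against -0.50 for b3galt6 (edgeR adjusted p = 0.0148, 0.0143 and 0.00457). These too were chosen after their values were seen. chsy3, a chondroitin synthase, fell from 16.7 and 13.8 CPM to 2.66 to 6.80 (log2 fold change -1.69 ± 0.25, edgeR adjusted p = 7.7e-05). fam20b, the xylose kinase of the linker, and b3gat3, which adds its glucuronic acid, each had log2 fold changes of -0.99 (edgeR adjusted p = 0.00018 and 3.1e-06).

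**Figure D5:**
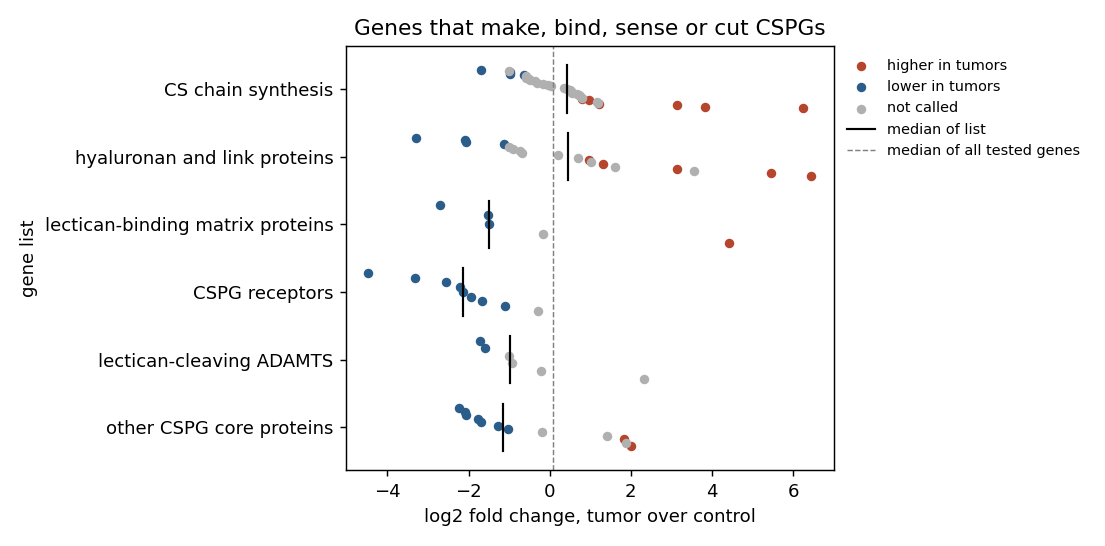
log2 fold changes, tumor over control, of the tested genes in 6 lists (vertical axis). Red points were called higher, blue points lower and grey points neither, black bars are list medians and the dashed line is the median of all tested genes, 0.09. The receptor list has 8 blue points and no red one, while chain synthesis and the hyaluronan list hold both colours.

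CSPG receptors were lower almost throughout. Of 9 tested genes 8 were lower and none higher, against 24.9% and 22.8% of all tested genes. The median log2 fold change was -2.14. rtn4rl2a, a Nogo receptor homolog, had 160 and 159 CPM in the pools and 1.69, 6.18 and 20.01 CPM as the lowest, median and highest tumor (log2 fold change -4.47 ± 0.52, edgeR adjusted p = 1.3e-05). rtn4rl2b fell with it (-3.31 ± 0.56, edgeR adjusted p = 0.00023). ptprfb, a receptor tyrosine phosphatase of the LAR family, went from 229 and 226 CPM to 20.04 to 74.19 (-2.56 ± 0.32, edgeR adjusted p = 2.3e-05). rtn4rl1b was the gene not called (edgeR adjusted p = 0.724). In the mammalian brain these receptors are known mainly from neurons, and the 20 neuron markers were lower by a median of -2.70 on the log2 scale. The part of neuron content in the receptor values was not tested.

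Of 6 tested ADAMTS proteases that can cut lecticans, 2 were lower and none higher, against 24.9% and 22.8% of all tested genes. The median log2 fold change was -0.97. adamts1 was at 6.04 and 7.07 CPM in the pools and 1.25 to 3.23 in the tumors (log2 fold change -1.60 ± 0.29, edgeR adjusted p = 0.00039). adamts8a was above both pools in all 10 tumors, at 5.22 to 30.0 CPM against 2.85 and 2.18, but missed the threshold (log2 fold change 2.33 ± 0.70, edgeR adjusted p = 0.0106), and DESeq2 called 1 gene of the list higher. adamts8a was chosen after its values were seen, and 31.5% of all tested genes lay above both pools in all 10 tumors.

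Among 12 tested genes for other core proteins that can carry chondroitin sulfate, 7 were lower and 2 higher. Of all tested genes, 24.9% were lower and 22.8% higher. The median log2 fold change of the 12 was -1.16. spock2 and spock3, the testicans of brain matrix, fell from 319 CPM in each pool to 36.0 to 107 for spock2 (log2 fold change -2.09 ± 0.32, edgeR adjusted p = 9.1e-05), and from 316 and 311 CPM to 51.0 to 107 for spock3 (-2.07 ± 0.20, edgeR adjusted p = 3.0e-06). ptprz1a, a receptor phosphatase with a secreted proteoglycan form called phosphacan in mammals, fell by 1.77 on the log2 scale (SE 0.33, edgeR adjusted p = 0.00048). The genes that rose were cd74a (log2 fold change 1.82 ± 0.46, edgeR adjusted p = 0.00381) and cd74b (2.005 ± 0.56, edgeR adjusted p = 0.00704). CD74 is the invariant chain of antigen presentation, and the summed level of the microglia and macrophage markers was 1399 to 4183 CPM in the tumors against 419 and 426. Most of that sum was apoeb, at 1080 to 3723 CPM in the tumors against 306 and 309. Of the 12 markers, 7 were called higher and 5 were not called. The part of microglia and macrophages in the cd74 values was not tested.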

How the data were processed

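The authors deposited whole-number read counts per gene, not normalized, and FPKM values computed from those counts, the gene's exonic length in base pairs and the library total (recomputed here to within 3.5e-07). The labels name GSNAP, HTSeq and assembly GRCz10. In the methods these steps come after the larval library section, in wording that is not limited to larval libraries. Unique mapping leaves the values of near-identical gene copies uncertain. Strand use in counting was not stated. The deposited comparison table holds the authors' DESeq2 fold changes and p-values and was not used.

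The a and b libraries of an RNA were summed. edgeR 4.0.16 (R 4.3.3) was run with TMM scaling and filterByExpr (20957 genes kept, all 9 members among them), the quasi-likelihood test and Benjamini-Hochberg adjustment, after it was tested on simulated data. Scripts used Python 3.11.15 and scipy 1.17.1. limma 3.58.1 and DESeq2 1.42.0 served as alternatives, with other scalings, filters, units, library groupings and each sample left out. Levels are TMM-scaled CPM. Ratios used a pseudocount of 0.5 counts, and correlations 100000 permutations.

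The members and gene lists were chosen with earlier results of these data known. Genes named from a list were the 3 greatest rises and the 3 greatest falls among called genes whose higher group reached 5 CPM, and the likeness search used genes with at least 10 CPM in tumors. Of 207 list symbols, 195 were matched. No sequences were used here.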

Additional observations from a re-analysis of the deposited data

Results flagged for a closer look

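Each of 17 sets of 10 tumor values was screened for a single tumor far from the rest, by a gap to its nearest neighbour above 0.466 of the whole range, which chance exceeds in about 1 of 20 sets. vcana in tumor 4, at 0.875 CPM (20 counts), stood above the other 9 tumors, which had 1 to 10 counts. cspg4bb in tumor 5, at 3.83 CPM, stood above the other tumors, the gap being 0.687 of the range. No explanation of either was tested.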

How the results depend on the processing

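The count of genes higher in tumors was 2 and fell to 1, with bcan lost, under edgeR's glmTreat and under RLE scaling, and ranged from 1 to 2 when samples were left out. The count of lower genes was 3, became 5 at an adjusted p of at most 0.05 with no fold threshold, and ranged from 3 to 4 with samples left out. It was 4 under DESeq2, limma voom and the b libraries alone, with acanb gained. With samples left out, the paralog log2 differences ranged from -6.26 to -5.78 for vcana/vcanb, from 2.69 to 2.97 for ncana/ncanb and from 0.79 to 0.97 for cspg5a/cspg5b. With 1 control the ratio test cannot go below 0.0909, so no pair could pass. Of 9 genes related to the neuron markers, 3 passed by r and 1 by rho, and 0 passed by r without the 2 farthest tumors, where 3 (ncanb, cspg5a and cspg5b) had an unadjusted permutation p under 0.05. No gene passed for the precursor markers (unadjusted permutation p under 0.05 for ncanb alone), and 1 did with library totals in place of TMM (ncanb, r = 0.81). No called value changed direction.

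Tumors and controls share the replicate numbers 1 and 2. The deviations of same-numbered samples from their group means had correlations of 0.0099 and 0.020 over 20957 genes. The 2 pools deviate from their own mean by equal and opposite amounts and are close in most values. The check therefore cannot decide whether the numbers mark a pairing. The other tumors share no number with a control, so the fit with the replicate block compares only tumors 1 and 2 with the pools. It is therefore no check on all tumors. In that fit 2 genes were higher and 3 lower, with acanb gained (edgeR adjusted p = 0.00518) and cspg4 lost (0.0275). cspg4 was also lost under limma on log2(FPKM + 1), which shrinks low genes. The other scalings moved the median of all genes by no more than -0.08 on the log2 scale. Genes under about 1 CPM, vcana above all, are limited by depth, and the 2 controls limit every comparison.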
